A study of Mus musculus with 2 samples.

Results

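The interleukin and interleukin receptor genes are the 73 protein-coding mouse genes whose symbol begins with Il and a digit, leaving out 10 genes of the interleukin-1 and interleukin-1 receptor clusters. They were taken by symbol from a RefSeq gene table of 21523 usable protein-coding genes. Of the 73, 36 encode ligands, 32 encode receptor chains and 5 encode neither or were not given a role. The series maps where the PAR bZIP transcription factor HLF (hepatic leukemia factor) binds in Lin-Sca-1+c-Kit+ cells, a population enriched for blood stem and progenitor cells, of C57BL/6 mice aged 8 to 10 weeks. One library came from cells infected with a MigR1 retrovirus with the transgene labelled 3xFLAG-HLF/HLF. A second came from cells infected with the empty MigR1 vector. Both were recovered with an anti-FLAG antibody after 5 days of culture in a medium that held 50 ng/ml of SCF, 10 ng/ml each of Flt3L and IL-7, and 5 ng/ml of IL-3. HLF was thus supplied by a virus and recovered by its tag, so the library targets the introduced protein. The empty-vector library was not analysed here, so peaks that do not depend on the tagged protein could not be set apart.

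Interleukins are secreted proteins by which blood and tissue cells instruct one another, and most act through a receptor built of 2 or more chains. Chains are shared: the common gamma chain (Il2rg) serves the receptors of IL-2, IL-4, IL-7, IL-9, IL-15 and IL-21, and gp130 (Il6st) those of IL-6, IL-11 and IL-27. Most of these receptors signal through JAK kinases and STAT factors. Those of the IL-1 and IL-17 families use adaptor proteins and the NF-kB and MAP kinase pathways instead. In blood progenitors, IL-3 supports myeloid and IL-7 lymphoid growth.

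The FLAG-HLF library (n = 1) is a list of 3153 intervals of 400 bp on mm10, with neither scores nor read counts, so read depth and peak strength are unknown. Here a gene is near a peak if the centre of at least 1 interval falls between its ends or no more than 20 kb beyond either of them. Every count below comes from 1 library without a replicate, and no test of binding between conditions was possible. A peak list gives no RNA level, so the identity of the sorted cells could not be checked against their markers.

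Of the 73 genes, 17 (23.3%, exact 95% interval 14.2 to 34.6%) lay near a peak, against 15.3% of all protein-coding genes. Protein-coding genes of the same lengths on the same kind of chromosome, autosome or X, would give 10.4 of 73, or 14.2%. The ratio of observed to expected was 1.64 with an interval of 0.997 to 2.43, which covers counting error over genes only and includes 1. The share was thus higher than both backgrounds, and its interval includes them. The 17 genes are the ligand genes Il2, Il6, Il10, Il15, Il17c and Il17d, and the receptor genes Il4ra, Il9r, Il12rb1, Il17ra, Il17rb, Il20ra, Il21r and Il22ra2. The other 3 are Il4i1, which encodes a secreted amino acid oxidase, its overlapping neighbour Il4i1b, and Il1rapl1, a neuronal relative of the IL-1 receptor accessory chain.

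Together these genes had 20 distinct peaks, of which 9 lay in the body of a member and 11 outside. At least 1 peak lay inside the body of 7 members (Il6, Il10, Il15, Il4ra, Il9r, Il17ra and Il1rapl1). Within the limit of 20 kb, 13 members had 1 peak, 3 had 2 and Il17ra had 3. Of the near members, 23.5% had 2 or more peaks, against 17.8% of all near protein-coding genes, not matched for length. For 11 of the 17, the member was the closest protein-coding gene to at least 1 of its peaks. The other 6 (Il4i1, Il4i1b, Il12rb1, Il17c, Il17rb and Il22ra2) were counted only through peaks closer to, or inside, another gene.

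**Figure D1:**
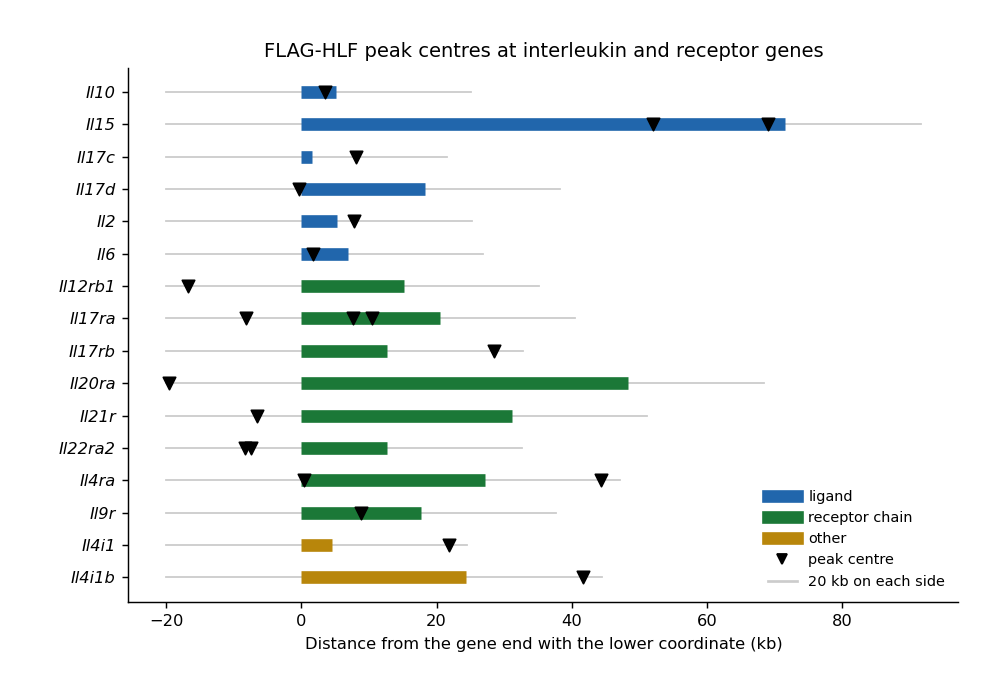
Peak centres (black triangles) at 16 of the 17 genes near a peak, drawn to scale in chromosome orientation, with the horizontal axis in kb from the gene end with the lower coordinate. Thick bars are gene bodies coloured by role and thin lines the 20 kb on each side. Il17d and Il4ra have a peak within 400 bp of that gene end, and Il17ra has 3 peaks. Il1rapl1, at 1375.0 kb, is too long for this scale and is not drawn.

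The peak at Il17d is shown as sequence because it was the only one to reach the RefSeq promoter window (250 bases before to 50 after a start site) of a member. IL-17D is a less studied ligand of the IL-17 family. Of the 73 members, 56 had such a window, and 1 of them overlapped a peak, against 0.961% of 17274 protein-coding genes with a window. The peak, chr14:57524327-57524726, was centred 303 bp upstream of the start site and shared 148 bases with the window. The sequence below is the 250 bases upstream of the start site from RefSeq (GRCm38.p6, plus strand, chr14:57524579-57524828), with the bases shared with the peak in capitals.
Il17d: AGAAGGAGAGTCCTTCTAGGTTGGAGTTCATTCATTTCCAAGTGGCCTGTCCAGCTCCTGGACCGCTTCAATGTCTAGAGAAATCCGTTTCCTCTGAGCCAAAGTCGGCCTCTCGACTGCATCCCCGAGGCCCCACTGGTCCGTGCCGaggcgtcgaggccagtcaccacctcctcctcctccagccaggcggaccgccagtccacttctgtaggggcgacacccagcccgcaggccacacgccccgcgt

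Il6 encodes a cytokine of inflammation and of myeloid growth, and its upstream sequence was the only one among the 56 to hold one of 4 words of 8 bases searched on both strands. That is 1.79% of the members with a window, below the 2.55% of all 17274 genes with a window. The words were TTACGTAA and TTATGTAA (reverse complement TTACATAA), the type bound by PAR bZIP factors, and TTGCGCAA and TTGCACAA (reverse complement TTGTGCAA), the type bound by C/EBP factors. In Il6 the match was TTGTGCAA, with its first base 128 bases upstream of the start site. C/EBP beta was first described as NF-IL6, a factor that binds the human IL6 promoter. The 30 bases around it (RefSeq, GRCm38.p6, plus strand, chr5:30012975-30013004) are given with the word in capitals.
Il6: acgacgtcacaTTGTGCAAtcttaataagg

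The Il6 peak did not lie over this site. It was centred 1.72 kb downstream of the start site, inside the gene, and began 1468 bp past the end of the promoter window. That stretch is also inside a noncoding gene, A230098N10Rik, and no other protein-coding gene lay within 20 kb of the peak. The Il17d window held none of the words. Among the 166 genes whose window overlapped a peak, 14.5% held at least 1 of the 4 words, against 2.55% of all 17274 genes with a window. By word, the shares of those 166 were 6.63% for TTATGTAA, 0.602% for TTACGTAA, 4.82% for TTGCACAA and 3.01% for TTGCGCAA. Among all 17274 they were 1.07, 0.145, 1.12 and 0.249%, in the same order. The peak sequences themselves were not analysed here, so what the peaks at Il6, Il10, Il15 or Il17ra contain is not given.

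Among the ligands, 6 of 36 lay near a peak (16.7%, exact 95% interval 6.37 to 32.8%), where genes of like length would give 4.85. Il10, the gene of an anti-inflammatory cytokine (chromosome 1, 131019845 to 131024970), had a single peak inside its body of 5.13 kb, 1.68 kb from the nearer end and near no other protein-coding gene. The 3 neighbouring genes of the same family, Il19, Il20 and Il24, lay 77.8, 112.0 and 135.9 kb from a peak, and for each of them the nearest was this peak in Il10. Il22, the family's other ligand and a signal to epithelial cells, was 83.3 kb from a peak. The IL-10 family thus had 1 of 5 ligand genes near a peak, where like length would give 0.585.

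Il15 (chromosome 8, 82331624 to 82403252) encodes the cytokine on which NK cells depend. It had 2 peaks inside its body, 2.64 and 19.6 kb from the nearer end, and neither was shared with another protein-coding gene. Il2 (chromosome 3, 37120713 to 37125954), which encodes the growth factor of activated T cells, had 1 peak 2.49 kb upstream of its start site. The closest other protein-coding gene to it, Adad1, was 16.9 kb away. A second peak lay 47.5 kb from Il2 and 49.3 kb from Il21, on the stretch between these genes, outside the limit for both. Of the 6 ligands that use the common gamma chain, Il4, Il7, Il9 and Il21 had no peak within 20 kb, at 60.4, 1148.7, 111.1 and 49.3 kb.

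Il17c (chromosome 8, 122422020 to 122423639), an epithelial member of the IL-17 family and the shortest of the 17 genes at 1.62 kb, was counted through a peak 6.52 kb away. That peak lay inside Cyba, which encodes a subunit of the phagocyte NADPH oxidase, and also within 20 kb of Mvd and Zc3h18. Only 4.1% of protein-coding genes of the same length class lay near a peak. Il17a and Il17f, the T cell cytokines that name the family, were 1122.1 and 1071.3 kb from the nearest peak, which was inside Kcnq5. Il17b was at 330.8 kb and Il25, which drives type 2 responses, at 38.8 kb, with that peak 0.254 kb from Pabpn1.

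Ligands of the common beta chain and IL-13 had no peak within 20 kb. IL-3, IL-5 and IL-13 are products of activated T and mast cells, and the genes of IL-4, IL-5 and IL-13 lie together on chromosome 11. Il4, Il13 and Il5 shared a nearest peak, 2.43 kb from Septin8, at 60.4, 79.3 and 168.8 kb. Il3 was 115.2 kb from its own nearest peak. Of the IL-6 and IL-12 families, Il6 alone of 7 ligands was near a peak, and the others (Il11, Il12a, Il12b, Il23a, Il27 and Il31) were 89.6 to 831.1 kb away. Of the 7 IL-1 family ligands outside the left-out clusters, 0 lay near a peak, where like length would give 0.963. Il18 was the closest at 28.9 kb, with that peak inside Pts, and Il33 was at 505.0 kb. Il1f5, Il1f6, Il1f8, Il1f9 and Il1f10, a group on chromosome 2 that holds the IL-36 genes, were 616.5 to 750.6 kb from a peak in Ehmt1. Il16 and Il34, which signal through CD4 and the CSF-1 receptor, were at 606.9 and 106.5 kb.

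Among the receptor chains, 8 of 32 lay near a peak (25%, exact 95% interval 11.5 to 43.4%), where like length would give 5.04. Receptor genes were longer than ligand genes, with median lengths of 27.2 kb for receptor chains and 6.12 kb for ligands, a difference that the expected numbers take into account. Il4ra (chromosome 7, 125552271 to 125579474), the chain that binds IL-4 and takes part in IL-13 signalling, had a peak centred 378 bp downstream of its start site, the closest to a start site among the receptor genes. The peak began 129 bp past the end of the promoter window and lay near no other protein-coding gene. A second peak stood between Il4ra and Il21r, 17.2 kb from Il4ra and 6.57 kb from Il21r. It was the only peak of Il21r (chromosome 7, 125603252 to 125634397), which encodes the IL-21 receptor of lymphocytes.

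Il9r (chromosome 11, 32187544 to 32205283), the receptor chain for the mast cell and T cell growth factor IL-9, had 1 peak inside its body, 3.95 kb downstream of its annotated start site. Snrnp25 and Rhbdf1 lay 9.09 and 13.3 kb from that peak. Of the 8 chains in common gamma receptors, Il4ra, Il9r and Il21r were thus near a peak, against 1.21 genes given by like length. Their share was 37.5%, with a wide exact 95% interval of 8.52 to 75.5%. Il2ra, Il2rb and Il15ra, which encode chains of the IL-2 and IL-15 receptors, were 74.6, 77.5 and 137.0 kb away. Il2rg, on X, was at 501.3 kb.

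Il7r and Il3ra, which encode receptor chains for IL-7 and IL-3 in the culture medium, had no peak within 20 kb. Il7r, which encodes the IL-7 receptor alpha chain of lymphoid progenitors, was 879.0 kb from a peak, and Il3ra, the IL-3 binding chain, 257.8 kb. Il5ra, which marks eosinophils and some B cells, was at 1497.8 kb. Both IL-13 receptor genes are on X, and Il13ra1 and Il13ra2 were 17149.5 and 1879.5 kb from a peak. On X, 22 of 963 protein-coding genes lay near a peak (2.28%), against 15.9% on the autosomes.

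Il17ra (chromosome 6, 120463181 to 120483731), the chain shared by the IL-17 family receptors, had the most peaks of any member. Of its 3 peaks, 2 lay inside the gene, 7.63 and 10.1 kb from the nearer end, and 1 lay outside at 8.25 kb. The outer peak was 10.4 kb from Kdm5a, and the inner ones were 18.1 and 15.3 kb from Tmem121b, so Il17ra was the closest gene to each. Of the 73 members, 1 had 3 peaks. By the same rule 0.488% of all protein-coding genes, not matched for length, had 3 or more. Il17rb, which encodes the receptor chain for IL-25 (chromosome 14, 29996168 to 30008896), was counted through a peak 15.7 kb upstream of its start site, inside Chdh. Il17re, Il17rc and Il17rd were 106.9, 119.7 and 180.4 kb from a peak.

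On chromosome 10, 2 members that are class II cytokine receptor genes were near peaks. Il22ra2 (19622028 to 19634681) encodes a soluble binding protein that blocks IL-22, and its 2 peaks lay 7.45 and 8.36 kb outside the gene. Both were closer to Ifngr1, an interferon gamma receptor gene, at 4.35 and 3.44 kb. Il20ra (19711673 to 19760053), which encodes a chain of the receptors for IL-19, IL-20 and IL-24, had 1 peak at 19.6 kb, just inside the limit and within the noncoding gene Gm33332. Of the remaining IL-10 family receptors, Il10ra lay just outside the limit at 25.4 kb, and Il10rb at 51.3 kb, with that peak 18.0 kb from Ifnar2. Il22ra1 and Il20rb were at 143.2 and 893.8 kb.

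Receptors of the IL-6 and IL-12 families had 1 of 9 genes near a peak, against 1.6 given by like length. Il12rb1 (chromosome 8, 70808360 to 70823542), the chain shared by the IL-12 and IL-23 receptors, was counted through a peak 16.7 kb away inside Mast3. Its partner chains Il23r and Il12rb2, neighbours on chromosome 6, had the same nearest peak at 41.0 and 156.5 kb. Il6ra and Il6st, the IL-6 binding chain and gp130, were 470.7 and 205.2 kb away. Il27ra, Il31ra, Il11ra1 and Il11ra2 were 263.1 to 788.5 kb away. Il11ra1 and Il11ra2 are near-identical copies, where reads may not be placed with certainty, so the lack of a peak there is uncertain.

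**Figure D2:**
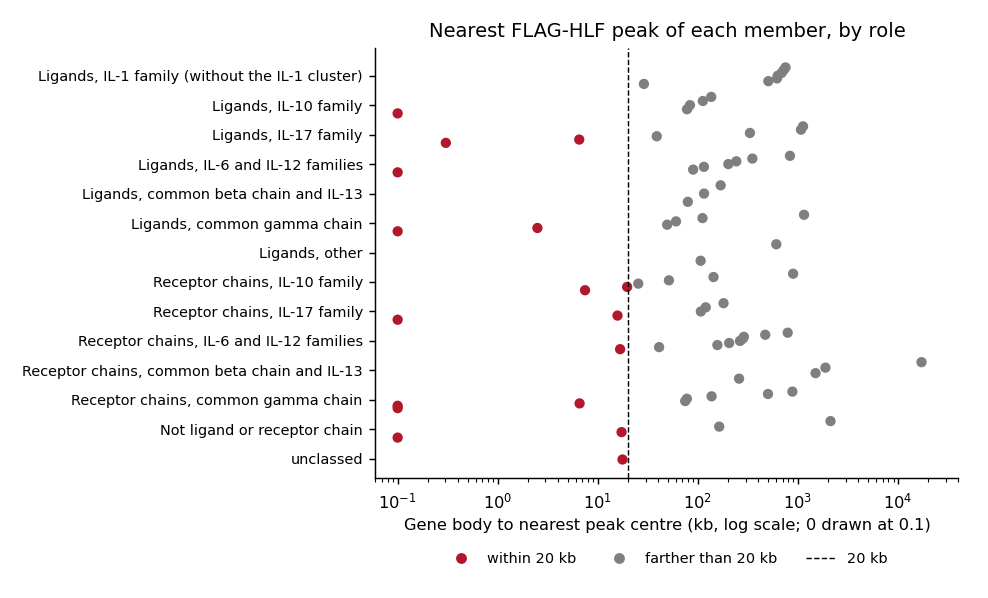
Distance in kb, on a log axis, from each of the 73 genes to its nearest peak centre, with 1 row per role and 1 point per gene. Genes within 20 kb (dashed line) are red and the others grey, and genes with a peak in the body are drawn at 0.1 kb. The rows of the common beta chain group hold no red point, for ligands or receptor chains.

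Of the 5 genes that are neither ligand nor receptor chain or have no role given, 3 lay near a peak (60%, exact 95% interval 14.7 to 94.7%), where like length would give 0.496 and 2 of the 3 were counted through the same peak. Il4i1 and Il4i1b occupy overlapping intervals on chromosome 7 and were counted through 1 peak, 17.3 kb away. Akt1s1, Ptov1 and Tbc1d17 were closer to that peak, at 2.66, 4.99 and 9.0 kb. Il1rapl1, on X, had 1 peak 216.5 kb inside its body of 1375.0 kb, where 5.79% of X genes in its length class were near a peak. That class also held Il13ra1, at 59.2 kb, so it matched so long a gene only loosely, which affects the 0.496 too. Il1rapl2, of like length on X, was 2112.1 kb from a peak. Il18bp, which encodes the soluble inhibitor of IL-18, was at 163.2 kb.

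The distance allowed between gene and peak changed the count and, less, its ratio to genes of like length. In gene bodies alone, 7 of 73 members held a peak (9.59%, exact 95% interval 3.94 to 18.8%), against 3.47 expected from like length and 6.94% of all protein-coding genes. Within 5 kb there were 9 (12.3%), which added Il2 and Il17d, against 5.75 expected and 9.58% of all. Within 10 kb there were 12 (16.4%), which added Il17c, Il21r and Il22ra2, against 7.36 expected and 11.6% of all. The interval of each of these shares included the share of all genes.

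Farther out the members and other genes drew together. Within 50 kb, 22 members (30.1%) had a peak, against 17.9 expected and 24.6% of all genes, with Il10ra, Il18, Il21, Il23r and Il25 added. Within 100 kb it was 30 members (41.1%), against 27.8 expected and 36.9% of all. The median distance to the nearest peak was 119.7 kb for the members and 178.8 kb for all protein-coding genes. Over 500 kb from any peak were 26.0% of the members and 26.9% of all genes. When each peak was given only to its closest gene within 100 kb, 11 members (15.1%) were counted, against 6.75 expected from like length and 11.2% of all genes. They were Il2, Il4ra, Il6, Il9r, Il10, Il15, Il17d, Il17ra, Il20ra, Il21r and Il1rapl1.

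**Figure D3:**
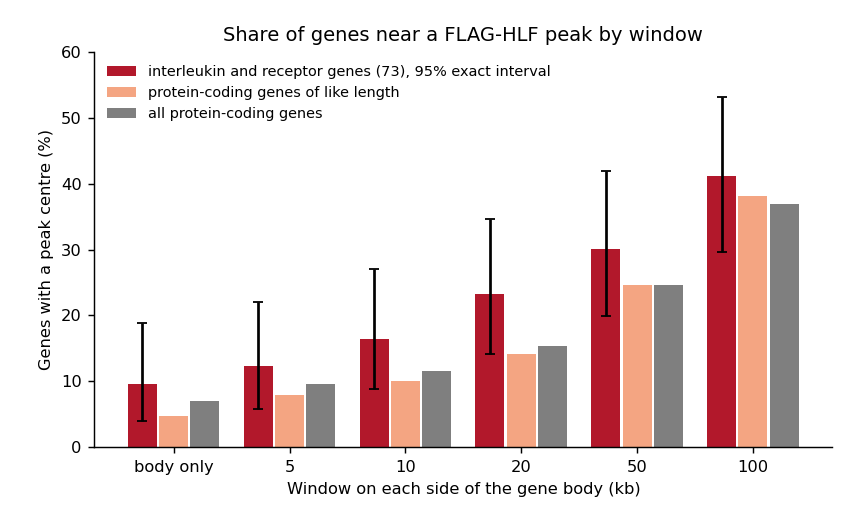
Percentage of genes with a peak centre in the body or within each window, for the 73 interleukin and receptor genes (red, with exact 95% intervals), protein-coding genes of like length (light) and all protein-coding genes (grey). The red bars are above the others in every window, and each interval reaches below the top of the grey bar.

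Genes that work with the interleukin receptors but carry other names were taken as a list of 37. Of these, 10 lay near a peak (27%, exact 95% interval 13.8 to 44.1%), against the 15.3% of all protein-coding genes. Unlike the counts of members, this comparison was not matched for gene length, and the interval includes the 15.3%. Of 11 kinase and STAT genes, 4 were near one: Tyk2 with a peak 2.4 kb inside, Jak2 with one 19.5 kb inside, Jak3 with one 4.65 kb outside, and Stat3 with 2. JAK3 is the kinase that pairs with the common gamma chain. Among 11 adaptor genes, Irak2, Irak3 and Gab2 were near a peak. IRAK-M, the product of Irak3, damps IL-1 family and Toll-like receptor signalling, and its gene had peaks 0.003 and 0.307 kb outside one end. Gab2, a docking adaptor of cytokine receptors, had 5 peaks, 4 of them in the body. Among 15 partner chains and ligands, Csf2rb2, a beta chain dedicated to the IL-3 receptor in mice, had a peak 3.96 kb away and Lifr, a receptor chain for LIF, one at 5.23 kb. Csf2rb2 was thus near a peak, while its partner Il3ra was not.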

How the data were processed

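Peaks of the FLAG-HLF library were used as deposited by the authors: chromosome, start and end on mm10, with no score, fold or p-value. Per the submitters' processing notes, the tools were Bowtie2 2.0.6 and MACS2 2.0.10. How peaks were thresholded, whether the control entered the calling and how every interval came to 400 bp is not given in the sources used here. Interval centres (start + 200) were set against the RefSeq table of GRCm38.p6, whose chromosome coordinates equal those of mm10, using chromosomes 1 to 19 and X and gene starts of at least 3 Mb (49214 of 49997 rows). Expected numbers are sums, over members, of the share near a peak among other protein-coding genes in the same of 20 length classes on autosomes or 5 on X, length meaning the gene plus its window. The longest class on X was wide, so expected numbers that include Il1rapl1 and Il1rapl2 match their length only loosely. Shares have exact Clopper-Pearson 95% intervals, which cover counting error only and treat genes as independent, although neighbouring genes share peaks. Start sites and sequences came from the RefSeq promoter table, and offsets use the nearest listed start site. Exons, introns and UTRs were not assigned. Genes named are all members near a peak, those just outside and the rest by role. Members, roles and lists were chosen with earlier results of these data known. The distance and expectation steps were tested on simulated data. Python 3.11.15, pandas 2.3.3 and SciPy 1.17.1 were used. Values of some neighbouring and pathway genes are not reported here.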

Additional observations from a re-analysis of the deposited data

How the results depend on the processing

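The count of 17 members near a peak stayed within 1.5 times in 12 of 16 alternatives. It was 30 within 100 kb, where more peaks can count by construction, and 7 in gene bodies alone, 9 within 5 kb and 11 with each peak given to its closest gene, where fewer peaks can count by construction. Some of the 12 were fixed by construction. Changing the number of length classes alters only the expected number, and leaving out Il4i1b or Il1rapl1 must give 16. The ratio of observed to expected stayed above 1 in all 15 alternatives that give one, from 1.08 within 100 kb to 2.02 in gene bodies. It was 1.41 for ligands and receptor chains only (14 of 68). Peaks inside another gene's body were the sole peaks of Il4i1, Il4i1b, Il12rb1, Il17c and Il17rb. Without such peaks 12 members (16.4%) remained, against 7.5 expected from like length. With overlapping regions counted as 1 locus, 15 of 62 loci (24.2%) were near a peak. No expected number or background share is given for loci, so this share cannot be compared with other genes. With centres within 1 kb merged, the 20 peaks became 19. The alternatives within 100 kb, without Il4i1b, without Il1rapl1 and by locus were chosen after seeing the data. No paired analysis was possible because there is a single library, which also leaves no replicate to omit. Depth is unknown, so a gene without a peak cannot be called unbound.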
